A study of Mus musculus with 7 samples.

Results

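Cytotoxic lymphocytes kill by releasing granules onto a target cell. Perforin (Prf1) opens the target's membrane, granzymes (Gzma, Gzmb, Gzmk) are serine proteases that enter and cleave proteins inside it, and Nkg7 is a granule membrane protein needed for their release. The same cells carry Klrk1 (NKG2D), a receptor for stress ligands, and Fasl, which triggers death through Fas. They secrete interferon gamma (Ifng), which activates macrophages, and the chemokine Xcl1, which attracts dendritic cells bearing Xcr1. Natural killer (NK) cells hold this equipment ready, whereas CD8 T cells acquire it after activation and most CD4 T cells do not carry it. These 9 cytotoxic effector genes were found by their symbols among the 32285 genes of the count tables, and each matched 1 gene.

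The genes were measured by droplet single-cell RNA sequencing of mouse hearts in 7 libraries. WT C57BL6/J mice, an inbred laboratory strain, gave 1 library at 8 weeks of age after myocardial infarction (MI) and 1 at 8 weeks after a sham operation. At P1 (newborn), mice labelled MerTK KO gave 1 library after MI and 1 after sham, and WT mice gave 2 after MI and 1 after sham. CD45+ cells (leukocytes) had been enriched and recombined with CD45- cells at a ratio of 2 to 1, so shares below are given within immune cells only. The labels give neither the time after surgery, nor the number of hearts in a library, nor the deleted part of Mertk, the receptor with which macrophages engulf dying cells. Transcripts were counted by unique molecular identifiers (UMIs), and the level of a gene is its UMIs per 1000000 UMIs of a cell class in a library (CPM). Mertk was at 18.8 CPM in macrophage-like cells of the P1 MI library labelled Mertk KO and 44.4 CPM in the sham library so labelled, against 52.7 and 25.4 CPM in WT P1 MI replicates 1 and 2 and 48.7 CPM in WT P1 sham. A 3' tag outside the deleted part checks nothing, so the genotype rests on the label and these 2 libraries are called KO-labelled.

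Cells were grouped by clustering without any of the 9 genes and named from marker genes, so each class is called NK-like, CD8 T-like or CD4 T-like. The libraries kept between 768 and 13436 cells, with 7707724 to 130847843 UMIs each, and 2 libraries shared at most 0.59% of the barcodes of the smaller one. There were 960 NK-like cells in WT 8 week sham, 43 and 50 in KO-labelled P1 MI and sham, 11 and 39 in replicates 1 and 2 of WT P1 MI, and 34 in WT P1 sham. By these naming rules WT 8 week MI, with 2703 immune cells, held no NK-like cell and entered no NK comparison. That count depends on the rules: a gate on marker UMIs alone named 28 of its cells NK-like (median 1054 UMIs), and the first round of clustering placed 24 cells of that library in the cluster that held the NK-like cells. Those 28 gated cells had Nkg7 at 3413 CPM, Gzma at 1868 CPM, Xcl1 at 1445 CPM and Prf1 at 224 CPM. The 941 gated cells of WT 8 week sham had Nkg7 at 3428 CPM, Gzma at 11030 CPM, Xcl1 at 815 CPM and Prf1 at 848 CPM. NK-like cells were 10.4% of immune cells in WT 8 week sham, against 1.22% and 4.10% in KO-labelled P1 MI and sham, 4.01% and 1.97% in replicates 1 and 2 of WT P1 MI, and 3.94% in WT P1 sham. Immune cells here are the named leukocyte classes and unnamed lymphocytes, without an unnamed cluster that carried macrophage and monocyte markers. That cluster held 191 cells of WT 8 week sham, 1743 and 298 of KO-labelled P1 MI and sham, 29 and 493 of WT P1 MI and 42 of WT P1 sham. Counting it would lower these shares unevenly. The defining marker Ncr1 was present in all 6 libraries with NK-like cells, at 711 CPM in WT 8 week sham and 235 to 423 CPM at P1. Cd3g, which encodes a CD3 subunit of the T cell receptor complex, was also counted in these cells. It was at 134 CPM in WT 8 week sham, 0 and 7.81 CPM in KO-labelled P1 MI and sham, 180 and 730 CPM in WT P1 MI and 350 CPM in WT P1 sham. Its part in the results was not tested.

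The promoters of 5 of the genes are shown because their transcripts carry most of the differences described here. Each run spans 250 bases before to 50 bases after the start of the gene on its own strand (RefSeq, mouse GRCm38.p6), and capitals mark matches on either strand to 4 short motifs of factors known in cytotoxic lymphocytes. The motifs searched were TCACACC (T-box factors such as T-bet and Eomes), TGTGGT (RUNX), GGAAAA (NFAT) and TGANTCA (AP-1).
Gzma, chr13:113100932-113101231, minus strand: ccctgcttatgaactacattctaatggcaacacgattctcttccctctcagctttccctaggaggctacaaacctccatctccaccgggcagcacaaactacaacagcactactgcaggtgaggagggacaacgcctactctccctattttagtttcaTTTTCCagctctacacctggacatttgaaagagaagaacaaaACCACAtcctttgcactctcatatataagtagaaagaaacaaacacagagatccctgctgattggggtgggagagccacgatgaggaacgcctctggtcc
Gzmb, chr14:56262285-56262584, minus strand: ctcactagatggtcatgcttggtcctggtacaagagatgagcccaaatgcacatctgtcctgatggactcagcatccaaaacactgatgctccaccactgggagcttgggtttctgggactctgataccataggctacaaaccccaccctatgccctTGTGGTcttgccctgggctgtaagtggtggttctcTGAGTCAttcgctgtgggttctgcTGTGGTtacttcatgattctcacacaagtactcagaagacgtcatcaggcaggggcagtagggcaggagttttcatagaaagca
Prf1, chr10:61297586-61297885, plus strand: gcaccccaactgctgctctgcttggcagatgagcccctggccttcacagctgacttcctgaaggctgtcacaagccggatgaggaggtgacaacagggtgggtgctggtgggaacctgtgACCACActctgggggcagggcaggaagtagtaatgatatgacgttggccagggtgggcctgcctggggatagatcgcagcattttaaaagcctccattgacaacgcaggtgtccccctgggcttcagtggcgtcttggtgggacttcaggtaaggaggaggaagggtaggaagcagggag
Ifng, chr10:118440796-118441095, plus strand: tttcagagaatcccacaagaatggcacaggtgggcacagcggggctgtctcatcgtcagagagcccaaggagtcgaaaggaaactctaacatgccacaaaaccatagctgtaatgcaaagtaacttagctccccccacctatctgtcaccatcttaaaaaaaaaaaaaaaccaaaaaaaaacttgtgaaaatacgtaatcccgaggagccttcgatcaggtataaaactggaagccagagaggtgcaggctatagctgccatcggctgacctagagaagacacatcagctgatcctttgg
Xcl1, chr1:164935473-164935772, minus strand: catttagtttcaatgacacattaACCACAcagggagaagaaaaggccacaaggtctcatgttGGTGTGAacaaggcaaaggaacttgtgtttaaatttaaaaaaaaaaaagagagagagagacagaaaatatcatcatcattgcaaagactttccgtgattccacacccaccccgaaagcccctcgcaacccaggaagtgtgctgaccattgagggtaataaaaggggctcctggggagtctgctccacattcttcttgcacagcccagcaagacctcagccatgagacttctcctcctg
All 9 genes matched a promoter in the RefSeq table. TGTGGT occurred in the promoters of 6 of the 9 genes (Gzma, Gzmb, Prf1, Nkg7, Klrk1 and Xcl1), against 16.8% of 32851 mouse promoters of the same length. TCACACC occurred in 3 (Gzmk, Nkg7 and Xcl1), against 3.98% of promoters. GGAAAA occurred in 2 (Gzma and Fasl), against 23.4%, and TGANTCA in 2 (Gzmb and Klrk1), against 7.81%. No 2 matches overlapped, and the Ifng window held none of the 4. A match is only a run of letters here, and no binding was measured.

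All 9 genes are protein-coding in GENCODE vM21 on GRCm38, and 3 pairs share a chromosome. Gzma (chr13:113093825-113100981) and Gzmk (chr13:113171608-113225908) lie on the minus strand of chromosome 13, and Xcl1 (chr1:164931644-164935527) and Fasl (chr1:161780689-161788495) on the minus strand of chromosome 1. Prf1 (chr10:61297833-61304680) and Ifng (chr10:118441046-118445892) lie on the plus strand of chromosome 10, as does Nkg7 on chromosome 7 (chr7:43437073-43438249). Gzmb (chr14:56258838-56262260) and Klrk1 (chr6:129610323-129623864) lie on minus strands. The span of Gzmk overlaps Esm1 on the other strand and that of Xcl1 overlaps Gm20743 on the other strand. Both are counted separately in the files, and any effect of the overlap on counts was not tested. The RefSeq promoter window searched for Gzmk (chr13:113180916-113181215) lies inside its GENCODE span rather than at its upstream end.

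In WT 8 week sham NK-like cells held most of these transcripts, with 87.8% of the library's 55301 Gzma UMIs, 84.6% of its Prf1 UMIs, 77.9% of Fasl, 73.4% of Ifng, 72.1% of Xcl1, 68.6% of Nkg7, 66.2% of Gzmb and 60.4% of Klrk1. Gzmk differed: CD8 T-like cells held 63.1% of its 187 UMIs. In WT P1 sham, NK-like cells held 81.6% of 1177 Gzma UMIs but 14.5% of 242 Gzmb UMIs, of which basophil-like cells held 46.7%. These were 13 basophil-like cells with 113 Gzmb UMIs (1244 CPM). Over the 5 newborn libraries NK-like cells held 48.6% to 89.5% of the Gzma UMIs and 69.8% to 88.2% of Xcl1, but 22.9% to 69.8% of Prf1. In the KO-labelled libraries their part was small for Gzmb, at 6.38% of 282 UMIs after MI and 9.65% of 891 UMIs after sham. Unnamed lymphocytes there held more Prf1 than NK-like cells did, at 45.1% of 71 UMIs after MI and 62.1% of 153 UMIs after sham. Klrk1 was also counted outside lymphocytes, in 51.2% of 740 dendritic-like cells of WT 8 week sham.

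**Figure D1:**
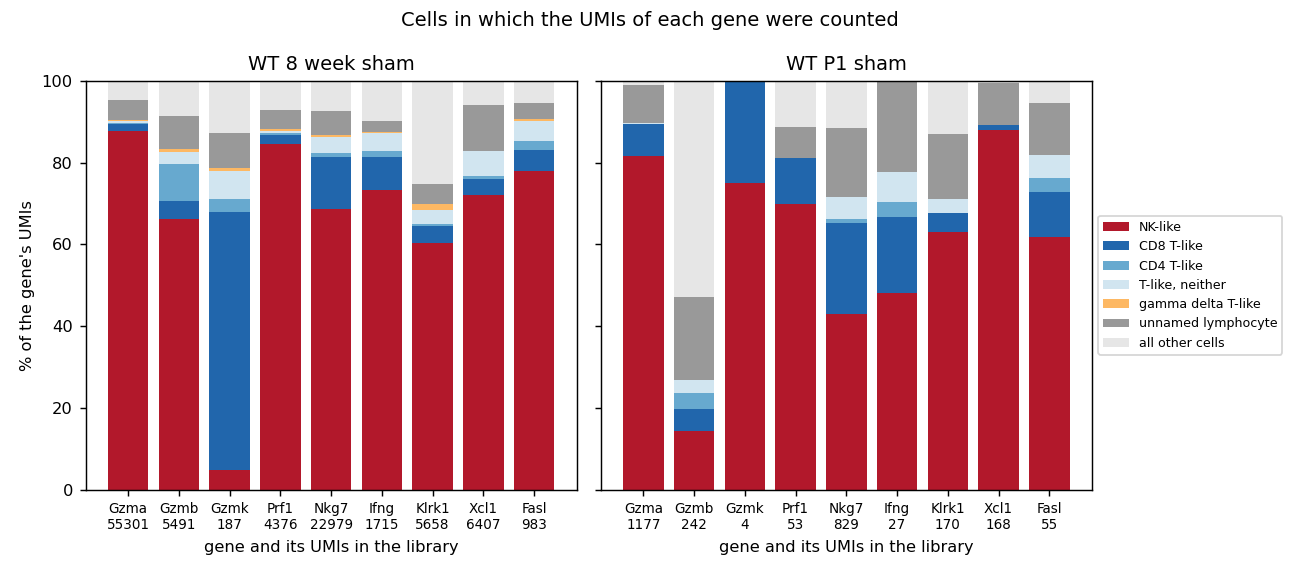
Stacked bars give the percent of each gene's UMIs (y axis) counted in each cell class, in WT 8 week sham on the left and WT P1 sham on the right, with the gene's UMIs in the library under its name. NK-like cells hold the largest part of 8 of the 9 genes in WT 8 week sham, Gzmk excepted, and in WT P1 sham of all but Gzmb.

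A low share of cells with a UMI can come from free RNA in the suspension. Among 3218 B-like cells of WT 8 week sham (median 2641 UMIs), which should lack these genes, 2.08% had a Gzma UMI, 1.06% an Nkg7 UMI and 0.59% a Prf1 UMI, and each other member was at or below 0.47%. Among 1565 fibroblast-like cells of that library (median 8849 UMIs) the shares were 4.15% for Gzma and 3.71% for Nkg7. At P1, Gzma was found in 0.70% of 286 B-like cells of WT P1 sham (median 5037 UMIs) and in none of the B-like cells of the other P1 libraries. Shares at or below these levels are read as background.

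The comparison of 8 weeks with P1 asks whether heart NK and T cells carry the same killing equipment in the adult, whose heart scars, as in the newborn, whose heart can regenerate. In NK-like cells of 8 week hearts, Gzma, Gzmb, Prf1, Nkg7 and Ifng were higher than at P1, and Klrk1, Xcl1 and Fasl were not called. The test was edgeR's quasi-likelihood test on summed counts of 6 libraries with age, injury and genotype as terms, with Benjamini-Hochberg adjustment over 4098 genes. It called 5 of the 8 members tested, all higher at 8 weeks, where 2.32% of all genes were called and 0.976% were called higher. Their median log2 fold change was 1.53, against -0.01 over all genes tested. Gzmk did not pass the filter on low counts. Age stands on the single library WT 8 week sham, so age and that library cannot be told apart. The version in its file header (6.1.0) was shared only with WT P1 MI replicate 2, and in the other P1 libraries it was 4.0.0.

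Gzma, a tryptase abundant in mouse NK cells, was at 14080 CPM in WT 8 week sham, against 2996 and 4616 CPM in KO-labelled P1 MI and sham, 5055 and 5416 CPM in WT P1 MI replicates 1 and 2, and 4727 CPM in WT P1 sham. The adult library lay above all 5 newborn ones, and the newborn ones differed among themselves by less than that gap. The log2 fold change was 1.46 ± 0.40 (SE; edgeR quasi-likelihood test, adjusted p = 0.0289). With every cell thinned to 1000 UMIs, 85.5% of NK-like cells had a Gzma UMI in WT 8 week sham, against 51.3% and 46.0% in KO-labelled P1 MI and sham, 60% and 51.3% in WT P1 MI and 69.7% in WT P1 sham.

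Gzmb, which cleaves after aspartate and sets off apoptosis, was at 1055 CPM in WT 8 week sham, against 123 and 336 CPM in KO-labelled P1 MI and sham, 125 and 391 CPM in WT P1 MI and 172 CPM in WT P1 sham. Among the newborn libraries it spread more than Gzma, without reaching the adult level, and a few cells carried it: 1 cell held 45.4% of the 86 UMIs in KO-labelled P1 sham. The log2 fold change was 2.07 ± 0.53 (adjusted p = 0.0147, edgeR). After thinning, 48.7% of NK-like cells had a Gzmb UMI in WT 8 week sham and 5.13% to 20% at P1.

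Prf1 was at 1074 CPM in WT 8 week sham, against 164 and 137 CPM in KO-labelled P1 MI and sham, 125 and 130 CPM in WT P1 MI and 182 CPM in WT P1 sham. The 5 newborn libraries lay close together, far below the adult one. The log2 fold change was 2.86 ± 0.47 (adjusted p = 8.24e-06, edgeR), and WT 8 week sham stood 5.89-fold above WT P1 sham (exact counting interval 4.27 to 8.38). Before thinning, 84.7% of NK-like cells had a Prf1 UMI in WT 8 week sham and 23.1% to 47.1% at P1, although the adult cells were the shallowest, with a median of 3033 UMIs against 3282 to 7145 at P1. After thinning, cells with both Gzma and Prf1, the granzyme and the pore that lets it in, were 59.5% of NK-like cells in WT 8 week sham, against 7.69% and 10.0% in KO-labelled P1 MI and sham, 0% and 10.3% in WT P1 MI and 21.2% in WT P1 sham. The 0% is of 10 cells, for which the exact binomial upper bound is 30.85%.

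Nkg7 was the most evenly carried member. It was at 4576 CPM in WT 8 week sham, against 2211 and 1535 CPM in KO-labelled P1 MI and sham, 1482 and 2400 CPM in WT P1 MI and 1753 CPM in WT P1 sham, with a log2 fold change of 1.59 ± 0.40 (adjusted p = 0.0108, edgeR). Between 93.0% and 100% of NK-like cells had an Nkg7 UMI in each of the 6 libraries, before thinning, so the difference lay in UMIs per cell.

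Ifng was at 365 CPM in WT 8 week sham, against 450 and 89.8 CPM in KO-labelled P1 MI and sham, 41.6 and 99.1 CPM in WT P1 MI and 64.0 CPM in WT P1 sham. The groups overlap, because KO-labelled P1 MI lay above the adult library and the other 4 newborn libraries lay below it. The fitted log2 fold change of age was 3.34 ± 0.53 (adjusted p = 3.46e-06, edgeR). It is larger than the plain log2 ratio of WT 8 week sham over WT P1 sham, 2.46 (exact counting interval 1.73 to 3.43), because the model assigns part of the KO-labelled P1 MI level to genotype and injury.

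Among the members that were not called, Xcl1 was at 1340 CPM in WT 8 week sham, against 423 and 379 CPM in KO-labelled P1 MI and sham, 208 and 1169 CPM in WT P1 MI and 729 CPM in WT P1 sham (log2 fold change 1.02 ± 0.47, adjusted p = 0.409, edgeR). Klrk1 was at 992 CPM in WT 8 week sham and 328 to 590 CPM at P1 (0.82 ± 0.45, adjusted p = 0.544), and Fasl at 222 CPM in WT 8 week sham and 66.4 to 167 CPM at P1 (0.75 ± 0.50, adjusted p = 0.681). All 3 were highest in the adult library, by differences that did not pass the adjustment over all genes. Gzmk ran the other way in level: 9 UMIs (2.61 CPM) in 960 adult cells, against 1 and 12 UMIs (6.83 and 46.9 CPM) in KO-labelled P1 MI and sham, 1 and 6 UMIs (13.9 and 31.3 CPM) in WT P1 MI and 3 UMIs (14.8 CPM) in WT P1 sham. It is known as a granzyme of memory CD8 T cells, and these counts were too few to test.

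Within WT 8 week sham, the levels of NK-like cells ran from Gzma through Nkg7, Xcl1, Prf1, Gzmb, Klrk1, Ifng and Fasl to Gzmk. A 3' library counts 1 tag per captured transcript, so UMI levels of different genes need no length correction. Prf1 (exact counting interval 1040 to 1109 CPM) and Gzmb (1021 to 1090 CPM) are neighbours in that order that do not differ beyond counting error. The 9 genes summed to 23710 CPM in WT 8 week sham, against 6784 and 7795 CPM in KO-labelled P1 MI and sham, 7520 and 10280 CPM in WT P1 MI and 8337 CPM in WT P1 sham. A thinned NK-like cell had UMIs of 4.33 of the 9 genes on average in WT 8 week sham (SD 1.29 over 955 cells), against 2.10 to 2.85 in the 5 newborn libraries.

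**Figure D2:**
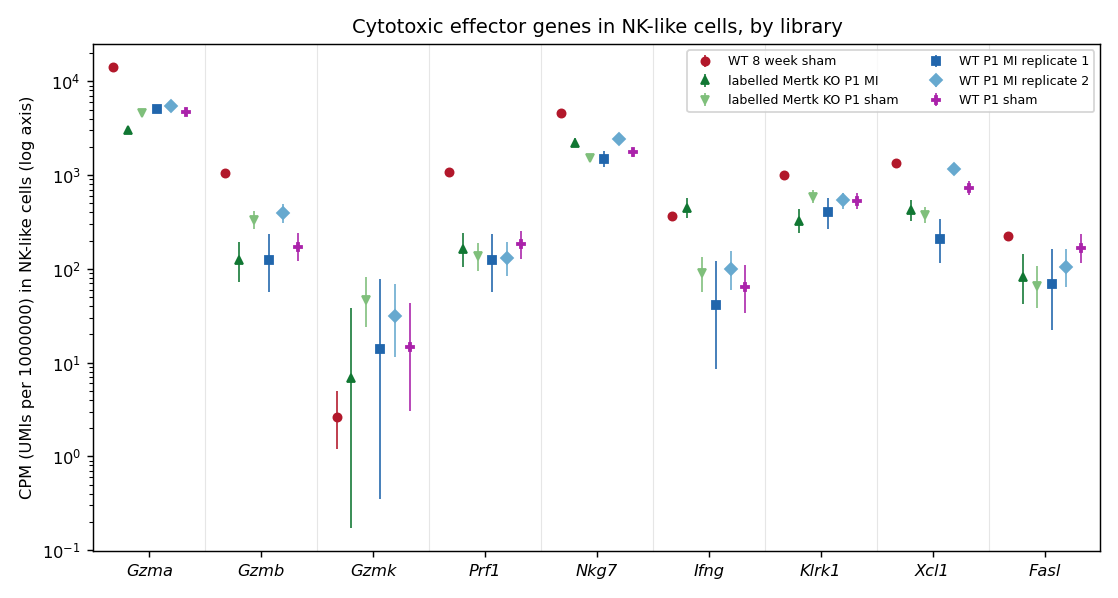
CPM (y axis, log scale) of the 9 genes in NK-like cells, 1 symbol per library, with exact Poisson intervals that cover counting error only. WT 8 week sham lies highest for 7 genes; Ifng is highest in KO-labelled P1 MI (450 CPM) and Gzmk is lowest in WT 8 week sham (2.61 CPM).

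The calls depended on single newborn libraries. Without WT P1 sham, Ifng alone of the 5 stayed called, and without KO-labelled P1 sham none did. Without KO-labelled P1 MI, Prf1 and Gzmb stayed, and without WT P1 MI replicate 2 all but Gzma. Over the libraries left out, the log2 fold change ran from 0.98 to 1.69 for Gzma, 0.62 to 2.73 for Gzmb, 2.67 to 3.48 for Prf1, 1.50 to 1.90 for Nkg7 and 2.62 to 4.69 for Ifng. DESeq2 did not call Gzmb, cells gated by markers gave no call for Gzma or Ifng, and a test with no filter on low counts called neither Gzma nor Nkg7.

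NK-like cells fell into 2 subclusters, whose makeup differed between the ages. Subcluster 0, led by Cma1, Ccl3, Klra8 and S1pr5 besides Gzma and Prf1, held 760 cells of WT 8 week sham and 4 newborn cells in all. Subcluster 3, led by Gzmc, Cd200r2, Klra5, Itga1 and Cd160 besides Xcl1, held the other 200 adult cells and nearly all newborn ones: 42 and 49 in KO-labelled P1 MI and sham, 11 and 39 in WT P1 MI and 32 in WT P1 sham. Itga1 encodes CD49a, which marks tissue-resident NK cells and type 1 innate lymphoid cells, and these cell types were not told apart here.

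In the adult library the members divided between these subclusters, which is given as a description because clusters are made from the genes that differ. Gzma was at 19710 CPM in subcluster 0 and 2487 CPM in subcluster 3, and Prf1 at 1469 CPM in subcluster 0 and 259 CPM in subcluster 3. Gzmb was at 1389 CPM in subcluster 0 and 368 CPM in subcluster 3, and Ifng at 465 CPM in subcluster 0 and 158 CPM in subcluster 3. Nkg7 was at 5448 CPM in subcluster 0 and 2779 CPM in subcluster 3, and Klrk1, at 1050 CPM in subcluster 0 and 873 CPM in subcluster 3, was nearly even. Xcl1 went the other way, with 566 CPM in subcluster 0 and 2934 CPM in subcluster 3, where 93.0% of adult cells had an Xcl1 UMI.

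Within subcluster 3, the fit of adult against newborn NK-like cells called Xcl1 and Ifng, of which Ifng was also called over the whole class. Gzma, at 2487 CPM in WT 8 week sham, lay below all newborn libraries (2947 and 4603 CPM in KO-labelled P1 MI and sham, 5055 and 5416 CPM in WT P1 MI and 4174 CPM in WT P1 sham), and its log2 fold change of -0.87 ± 0.42 was not called (adjusted p = 0.471, edgeR). Xcl1, at 2934 CPM in WT 8 week sham, lay above all of them (425 and 382 CPM in KO-labelled P1 MI and sham, 208 and 1169 CPM in WT P1 MI and 762 CPM in WT P1 sham), and was called with a log2 fold change of 2.16 ± 0.50 (adjusted p = 0.00937, edgeR). Ifng was the other (2.15 ± 0.56, adjusted p = 0.0369, edgeR), although its 158 CPM in WT 8 week sham lay below the 452 CPM of KO-labelled P1 MI. The other 4 newborn libraries were at 41.6 to 99.1 CPM. These were 2 of 8 members, both higher, where 1.13% of 3999 genes were called and 0.5% were called higher. Prf1 (1.19), Gzmb (1.01) and Nkg7 (0.98), all called over the whole class, were not called here. The difference between both sets of fits was not tested. This fit was added after the subclusters had been seen.

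**Figure D3:**
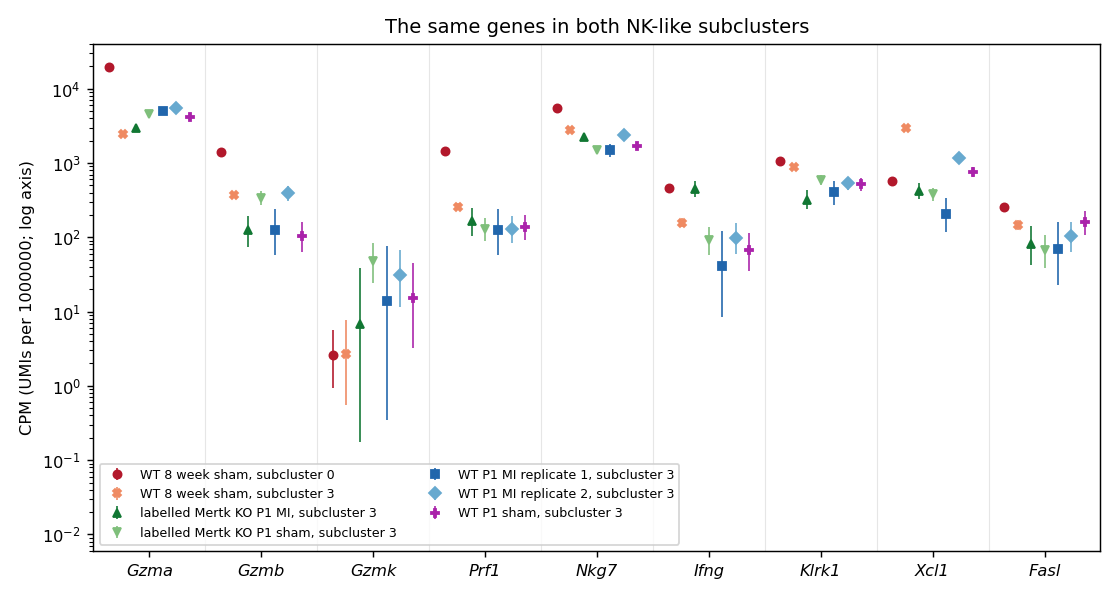
CPM (y axis, log scale, with exact Poisson intervals for counting error) of the 9 genes in NK-like subclusters 0 and 3 of WT 8 week sham and in subcluster 3 of the 5 newborn libraries. In the adult library Gzma is at 19710 CPM in subcluster 0 and 2487 CPM in subcluster 3, whereas Xcl1 is at 566 CPM in subcluster 0 and 2934 CPM in subcluster 3.

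Other genes of the NK program were counted from lists of pathway genes. Among NK receptors and adaptors, 9 of 22 tested were higher at 8 weeks in NK-like cells and none lower, led by Klrg1, Klra1, Klra9 and Klra4, where 0.976% of all genes were called higher. Within subcluster 3 it was 4 of 21 (Klra1, Klra9, Klra7 and Klra4), where 0.5% were called higher. Klra4, Klra7 and Klra9 were themselves among the markers that named the class. So were Ncr1, Klrb1c, Klra8, Klre1, Klri2, Tyrobp and Klrd1 of this list, so the list is not independent of the naming. Klrg1, an inhibitory receptor of mature NK cells, was at 151 CPM in WT 8 week sham, against 41.0 and 0 CPM in KO-labelled P1 MI and sham, 0 and 26.1 CPM in WT P1 MI and 9.85 CPM in WT P1 sham (log2 fold change 5.38 ± 0.89, adjusted p = 8.90e-06, edgeR). Within subcluster 3 Klrg1 was at 35.5 CPM in WT 8 week sham and 0 to 41.1 CPM at P1, and was not called. Of 8 other granule and killing genes tested 1 was higher, Cst7, an inhibitor of granule cathepsins (2.54 ± 0.58), and of 9 effector transcription factors 2 were higher, Zeb2 (2.91 ± 0.62) and Id2 (2.37 ± 0.46). Within subcluster 3 none of 9 granule genes and 1 of 8 transcription factors, Id2, was called, and Zeb2 was at 26.6 CPM in WT 8 week sham, against 36.0 CPM in WT P1 sham. Tbx21 and Eomes, which encode the T-box factors of NK cells, were not called, at log2 fold changes of 0.93 and 0.76, nor were Srgn, the proteoglycan that packs granules (0.19), Ctsc, which activates granzymes (1.12), Hcst, the adaptor of Klrk1 (0.06), and Il2rb, a chain of the IL-15 receptor (-0.69).

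The effector and tissue memory list had 4 genes higher and 1 lower of 13. The chemokine Ccl3 was higher (4.39 ± 0.56), at 915 CPM in WT 8 week sham, against 164 and 39.1 CPM in KO-labelled P1 MI and sham, 0 and 88.7 CPM in WT P1 MI and 73.9 CPM in WT P1 sham. Itga1 was lower (-1.74 ± 0.52), at 27.3 CPM in WT 8 week sham and 41.6 to 141 CPM at P1. Within subcluster 3 none of 12 genes of this list was called: Ccl3 was at 139 CPM in WT 8 week sham and 0 to 165 CPM at P1, and Itga1 at 66.6 CPM in WT 8 week sham and 41.6 to 142 CPM at P1. Of the cytokine receptors, Il7r alone of 8 was called, lower at 8 weeks (-1.86 ± 0.55). The naive and central memory list had 1 gene higher, Klf2, and 2 lower, Igfbp4 and Tcf7, of 9, and none of 5 receptors and ligands of other cells was called. Within subcluster 3 no gene of these 3 lists was called.

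In CD8 T-like cells most members were rare, and Nkg7 alone was found in most cells. Nkg7 was at 1003 CPM in 547 cells of WT 8 week sham, against 1258 and 947 CPM in KO-labelled P1 MI and sham (25 and 46 cells), 503 and 895 CPM in WT P1 MI (16 and 17 cells) and 427 CPM in WT P1 sham (50 cells). The groups overlap (log2 fold change 1.44 ± 0.45, adjusted p = 0.0741, edgeR), and 74.0% to 94.1% of cells had a UMI in each library. The 5 CD8 T-like cells of WT 8 week MI had 26 Nkg7 UMIs (5409 CPM), and that library entered no test.

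Xcl1 and Klrk1 were higher at 8 weeks in CD8 T-like cells. Xcl1 had 247 UMIs in WT 8 week sham (83.7 CPM, in 13.2% of cells), against 4 and 0 UMIs in KO-labelled P1 MI and sham, 0 in both WT P1 MI replicates and 2 in WT P1 sham (2.00% of cells). Against WT P1 sham the ratio was 18.0-fold, with an exact counting interval of 4.94 to 149.7 (log2 fold change in the fit 6.29 ± 0.96, adjusted p = 4.72e-08, edgeR). Klrk1 was at 77.9 CPM in WT 8 week sham, against 17.6 and 40.9 CPM in KO-labelled P1 MI and sham, 12.3 and 37.3 CPM in WT P1 MI and 18.6 CPM in WT P1 sham (2.09 ± 0.60, adjusted p = 0.0372, edgeR). These were 2 of 8 members tested, both higher, where 1.5% of 4127 genes were called and 0.872% were called higher. The filter on low counts could be passed through a single library. Xcl1 passed it only through WT 8 week sham, with 0 to 35.2 CPM at P1, so its place in this count is no independent support. Ifng and Gzmk, which were not called, also passed only through that library. The newborn values rest on 2 to 14 Klrk1 UMIs a library. Neither was called by DESeq2, which called 2 genes in all, nor when cells were gated by markers, nor without WT P1 sham or KO-labelled P1 sham. Klrk1 was also lost without KO-labelled P1 MI and with no filter on low counts. Over the libraries left out, the log2 fold change ran from 4.36 to 16.5 for Xcl1 and from 0.85 to 2.36 for Klrk1.

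Gzmk was at 40.0 CPM in CD8 T-like cells of WT 8 week sham, against 0 and 14.6 CPM in KO-labelled P1 MI and sham, 0 CPM in both WT P1 MI replicates and 2.32 CPM in WT P1 sham, a difference that was not called (log2 fold change 4.23 ± 1.56, adjusted p = 0.185, edgeR). Ifng (2.56, adjusted p = 0.0729), Gzmb (1.67, adjusted p = 0.152), Prf1 (1.89, adjusted p = 0.451) and Gzma (0.94, adjusted p = 0.489) were not called either, and Fasl was not tested. CD8 T-like cells of the ages came from different subclusters. Those of WT 8 week sham lay mostly in subclusters 2 (383 cells) and 4 (113 cells), while subcluster 11, led by Sox4 among others, held 41 of the 50 cells of WT P1 sham. Subcluster 4 was led by Gzmk and Cxcr3. Its 113 CD8 T-like cells of WT 8 week sham held 98.1% of the Gzma UMIs of that class (1605 CPM), against 5.86 CPM in the 383 CD8 T-like cells of subcluster 2. In KO-labelled P1 sham 10 CD8 T-like cells of subcluster 4 held 96.6% of the Gzma UMIs, whereas in WT P1 sham subcluster 11 held 66.0% of them. Without the subclusters led by Sox4 or Rag1 too few newborn cells were left for a fit.

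Among other genes in CD8 T-like cells, Ccl5 (log2 fold change 1.93 ± 0.42), Cxcr6 (3.20 ± 0.71) and Id2 (2.41 ± 0.48) were higher at 8 weeks. The lists gave 4 of 9 effector and tissue memory genes, 2 of 4 effector transcription factors, 1 of 7 granule genes (Cst7, 1.96 ± 0.56) and 1 of 12 NK receptors (Klrg1) higher and none lower, where 0.872% of all genes were called higher, and none of 10 naive and central memory genes was called. DESeq2 called 2 genes in all for this comparison and the marker gate 0.

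**Figure D4:**
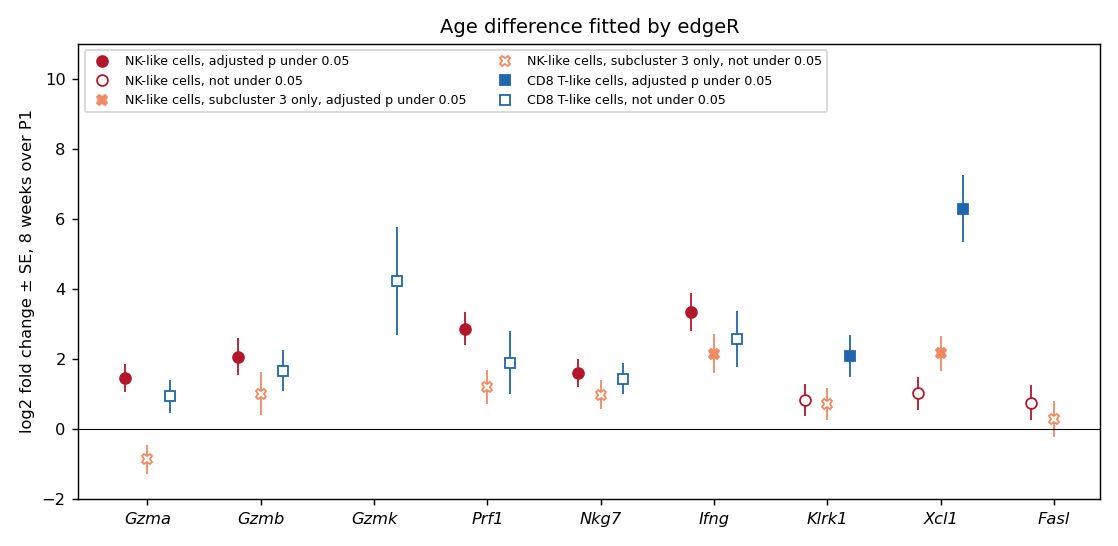
Log2 fold change of 8 weeks over P1 (y axis, ± SE, edgeR) for each member in NK-like cells, in NK-like subcluster 3 and in CD8 T-like cells, with filled symbols at an adjusted p under 0.05. Gzma is 1.46 over all NK-like cells and -0.87 within subcluster 3, and a member without a symbol was not tested.

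CD4 T-like cells had little of any member except Gzmb and Nkg7. Nkg7 was found in 16.0% of these cells in WT 8 week sham (115 CPM). It was in 25% of them in KO-labelled P1 sham (521 CPM) and 5% in WT P1 sham (20.6 CPM). With at least 10 cells required, 4 libraries remained and left no residual degrees of freedom. A fit on libraries with at least 5 cells, added after this was seen, gives the tests here, over 6 libraries. Gzmb was at 258 CPM in WT 8 week sham (498 UMIs, 331 cells), against 145 and 1049 CPM in KO-labelled P1 MI and sham (2 and 288 UMIs, 6 and 28 cells), 0 in both WT P1 MI replicates (8 and 10 cells) and 20.6 CPM in WT P1 sham (9 UMIs, 60 cells). A count of 0 allows up to 46.0 and 80.8 CPM in those replicates (3 UMIs). It was thus highest in KO-labelled P1 sham, where 11 of 28 cells had it and 1 cell held 39.2% of the UMIs. For age, Gzmb (log2 fold change 3.77 ± 0.89, adjusted p = 0.0034) and Gzma (7.93 ± 1.86, adjusted p = 0.0033, both edgeR) were called higher at 8 weeks and Nkg7 was not, that is 2 of the 3 members tested, where 1.37% of 4542 genes were called and 1.23% were called higher. Gzma rested on 124 UMIs in WT 8 week sham, of which 1 cell held 73.4%, and on 1 and 14 UMIs in KO-labelled P1 MI and sham with none in the WT P1 libraries. Both calls were lost with DESeq2 and with the marker gate, and that of Gzmb also without WT P1 sham, without WT P1 MI replicate 2 or without KO-labelled P1 sham. The filter on low counts could be passed through a single library. All 3 members passed it only through WT 8 week sham or a KO-labelled library, so 2 of 3 is no independent support.

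Most Gzmb UMIs of CD4 T-like cells lay in a subcluster led by Foxp3, Penk and Ctla4, where Foxp3 is the factor of regulatory T cells. Counting only its CD4 T-like cells, it held 98.4% of them in WT 8 week sham (498 CPM, 99 cells), 93.4% in KO-labelled P1 sham (1527 CPM, 11 cells) and all 9 UMIs of WT P1 sham (294 CPM, 3 cells). In KO-labelled P1 MI both UMIs were there, in 3 cells, while T-like cells with UMIs of neither Cd4 nor Cd8 held 95 Gzmb UMIs of that library. In WT P1 sham, 56 of 60 CD4 T-like cells lay in a subcluster led by Rag1 and Sox4, which mark immature T cells, and no Gzmb UMI was counted in those 56.

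**Figure D5:**
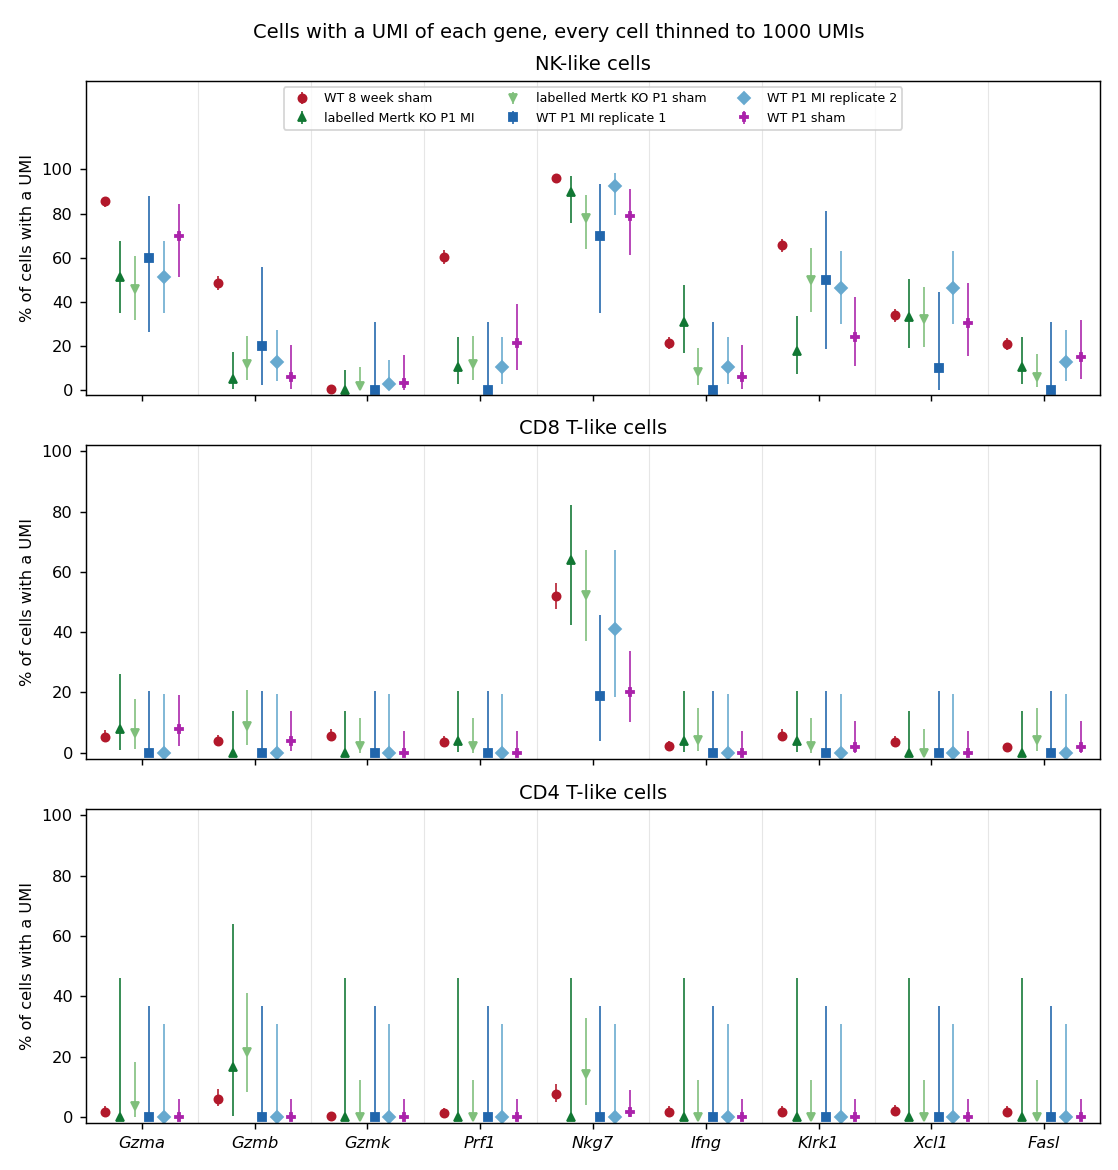
Percent of cells with a UMI of each gene (y axis) after every cell was thinned to 1000 UMIs, with exact binomial intervals, for 6 libraries in NK-like, CD8 T-like and CD4 T-like cells from top to bottom. Gzma and Prf1 are highest in NK-like cells of WT 8 week sham, at 85.5% and 60.4%. The Prf1 interval there overlaps none at P1, whereas that of Gzma overlaps those of WT P1 sham and WT P1 MI replicate 1. Nkg7 is the only member above 30% in CD8 T-like cells.

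The comparison of MI with sham asks whether injury of the heart changes these genes, and was fitted in the same models. In NK-like cells no member was called, where 0.122% of genes were called (5 genes at adjusted p, 177 genes at an unadjusted p under 0.05, and 0 genes by DESeq2). Ifng, the nearest, was at 450 CPM in KO-labelled P1 MI and 41.6 and 99.1 CPM in WT P1 MI, against 89.8 CPM in KO-labelled P1 sham and 64.0 CPM in WT P1 sham. Its log2 fold change was 1.49 ± 0.45 (adjusted p = 0.379, edgeR). Within KO-labelled hearts MI stood 5.02-fold above sham (exact counting interval 3.08 to 8.45), on 66 and 23 UMIs, whereas within WT hearts replicate 1 stood at 0.649 of sham (0.119 to 2.36) and replicate 2 at 1.55-fold (0.726 to 3.41).

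In CD8 T-like cells Gzma was lower after MI. It was at 70.4 CPM in KO-labelled P1 MI (8 UMIs) and 73.7 and 0 CPM in WT P1 MI (12 and 0 UMIs), against 348 CPM in KO-labelled P1 sham (119 UMIs) and 218 CPM in WT P1 sham (94 UMIs). The count of 0 allows up to 28.0 CPM (3 UMIs). All 3 MI libraries lay below both sham libraries (log2 fold change -2.24 ± 0.44, adjusted p = 0.00152, edgeR), and Gzma was the only gene called of 4127 (0.0242%). The UMIs came from few cells: 2, 1 and 0 cells had Gzma after MI, against 7 cells in KO-labelled P1 sham, of which 1 held 46.2% of the UMIs, and 6 cells in WT P1 sham, of which 1 held 62.8%. The call was lost without WT P1 sham or either KO-labelled library, by DESeq2, with 6 groups in the model and when cells were gated by markers. The P1 sham cells of both genotypes lay mostly in subcluster 11 (28 cells in KO-labelled and 41 in WT sham), and those of KO-labelled P1 MI and WT P1 MI replicate 2 mostly in subcluster 2 (18 and 11 cells). WT P1 MI replicate 1, with Gzma at 73.7 CPM, was like the sham libraries, with 13 cells (81.25%) in subcluster 11. The part of this makeup was not tested. In CD4 T-like cells no member was called (0%, with 111 genes at an unadjusted p under 0.05 and none by DESeq2).

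The comparison of KO-labelled with WT hearts asks whether loss of the engulfment receptor goes with a change in these genes. In NK-like cells Ifng was called higher in KO-labelled hearts, at 450 and 89.8 CPM in KO-labelled P1 MI and sham, against 41.6 and 99.1 CPM in WT P1 MI and 64.0 CPM in WT P1 sham. The log2 fold change was 1.71 ± 0.42 (adjusted p = 0.0263, edgeR), 1 of 8 members, where 0.415% of 4098 genes were called and 0.22% were called higher. The difference lay in 1 library: 22 of its 43 NK-like cells had an Ifng UMI, no cell held more than 13.6% of the 66 UMIs, and without KO-labelled P1 MI the log2 fold change was 0.43. KO-labelled and WT sham libraries differed 1.40-fold, within counting error (exact interval 0.682 to 3.02). The call was also lost with other size factors, with no filter, by DESeq2, with 6 groups, by marker gate, within subcluster 3 and without WT P1 sham, WT P1 MI replicate 2 or KO-labelled P1 sham. The neutrophil gene S100a8 was at 403 CPM in NK-like cells of KO-labelled P1 MI and 397 CPM in those of WT P1 MI replicate 2, against 27.3 CPM or less in the other newborn libraries, and its part was not tested.

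Xcl1 in NK-like cells was at 423 and 379 CPM in KO-labelled P1 MI and sham, against 208, 1169 and 729 CPM in the WT P1 libraries, and was not called (-0.93 ± 0.37, adjusted p = 0.508, edgeR). Gzma, Gzmb, Prf1, Nkg7, Klrk1 and Fasl had log2 fold changes between -0.83 and -0.03 and were not called. In CD8 T-like cells no member was called, where 0.339% of genes were called (14 genes at adjusted p, 312 at an unadjusted p under 0.05, and 0 by DESeq2).

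In CD4 T-like cells all 3 members tested were called higher in KO-labelled hearts, in the added fit: Gzmb (log2 fold change 5.55 ± 0.90, adjusted p = 9.49e-07), Nkg7 (4.45 ± 0.96, adjusted p = 0.000725) and Gzma (7.32 ± 1.98, adjusted p = 0.0143, edgeR). Of 4542 genes 2.44% were called and 1.48% were called higher. The filter on low counts could be passed through a single library. These 3 passed it only through WT 8 week sham or a KO-labelled library, with 0 to 20.6 CPM in the WT P1 libraries. That all 3 tested were called is therefore no independent support, and the other members were not tested. Nkg7 was at 0 and 521 CPM in KO-labelled P1 MI and sham, against 0 in both WT P1 MI replicates and 20.6 CPM in WT P1 sham. Without KO-labelled P1 sham, which supplied 28 KO-labelled cells beside 6 of KO-labelled P1 MI, no gene was called. All 3 calls were also lost with 6 groups and with the marker gate, those of Gzma and Nkg7 with DESeq2, and those of Gzmb and Nkg7 without WT P1 sham. The call of Gzma was lost without either WT P1 MI replicate and that of Nkg7 without replicate 2. The log2 fold change of Nkg7 was 0 without WT P1 sham. The Gzmb sham libraries stood 51.0-fold apart (exact counting interval 26.5 to 112.8), with the Foxp3-led subcluster holding 11 of 28 cells in KO-labelled P1 sham and the Rag1-led and Sox4-led one 56 of 60 in WT P1 sham. How much of the difference goes with this makeup was not tested.

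Across 85 sums of counts, each a cell class of 1 library with at least 20 cells, over 19 classes, the mean of the 9 genes ran most closely with Klrc2 (Pearson r of log2(CPM + 1) 0.909), Klrc1 (0.881), Klre1 (0.874), Ctsw (0.873) and Klrb1c (0.873). Among genes outside the 9, Gzma (0.895), Prf1 (0.847) and Ifng (0.881) were each most like Klrc2, and Nkg7 was most like Ctsw (0.898). Klrk1 was most like Klrb1b (0.849), Xcl1 like Klrb1c (0.833), and both Gzmk (0.794) and Fasl (0.901) like Samd3. Gzmb was most like Gm19585 (0.882). Members were left out of all these rankings, and Prf1 and Xcl1 ran more closely with the member Gzma (0.869 and 0.844). These are descriptions over sums that share libraries and depth.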

How the data were processed

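The deposited values are raw UMI counts, a matrix of genes by barcodes for each library. Per the submitters' processing notes, Cell Ranger was used with GRCm38 (mm10). Per the file headers its version was 6.1.0 in WT 8 week sham and in replicate 2 of WT P1 MI, and 4.0.0 in the other 5 libraries. Hearts were digested with collagenase and DNase, and dead cells were removed, per the labels' protocols. Libraries used 10x 3' kits, v3 or v3.1.

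A barcode was kept from 500 UMIs and 300 genes upward, unless over 15% of its UMIs were mitochondrial. Scrublet's automatic threshold marked 0 cells of WT 8 week sham, so in each library the top-scoring cells were taken out, 0.8% per 1000 barcodes. Clusters (scanpy 1.11.5, leidenalg 0.10.2, 2000 variable genes without the 9 members, 30 components, 15 neighbours, resolution 1) were named from marker lists. Lymphocytes were clustered again, and T-like cells were split by UMIs of Cd8a, Cd8b1 and Cd4. The naming rules were written after the data were seen, so classes are rebuilt and may differ from the authors'. WT 8 week MI had under 10 cells of each class and entered no fit on these classes. The marker gate gave it 28 NK-like and 15 CD8 T-like cells, so fits on gated cells hold it in both classes, and for NK-like cells leave out WT P1 MI replicate 1. The gate for NK-like cells required UMIs of NK markers and none of Cd3d, Cd3e, Cd3g or Cd79a. It was not limited to lymphocyte clusters. In WT P1 sham it named 12 cells, with Nkg7 at 660 CPM, so gated cells are not the cells of the NK-like class. Unnamed lymphocyte subclusters entered no comparison.

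Counts were summed per class and library (at least 10 cells) and tested with edgeR 4.0.16 in R 4.3.3 (quasi-likelihood, TMM, filterByExpr, terms age, injury and genotype, 2 residual degrees of freedom), with Benjamini-Hochberg adjustment over all genes tested and calls at an adjusted p under 0.05. SEs are the log2 fold change over the root of the F statistic. Library-size scaling in place of TMM moved the median log2 fold change of all genes by -0.109 (age, NK-like), -0.311 (age, CD8 T-like) and -0.110 (MI, CD8 T-like), and by less than 0.1 elsewhere. The fits were tested on simulated counts. Nothing in the labels says that libraries came from separate animals, so p-values reflect only how these samples spread, which may be technical. Intervals (95%, exact Poisson or binomial) and floors (3 counts) cover counting error only. Thinning drew 1000 UMIs per cell once and left out 0 to 5 cells a library.

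Named genes were the 9 members, the genes Il2rb, Hcst, Ctsc, Srgn, Eomes and Tbx21, and up to 4 genes per list with the largest change past the threshold. Members and lists were chosen with earlier results of these data known. Alternatives were RLE size factors, no filter on low genes, DESeq2 1.42.0, no doublet removal, at least 1000 UMIs per cell, a marker gate in place of clusters, 6 groups in the model and leaving out each library. The fits within subcluster 3 and on libraries with at least 5 CD4 T-like cells were chosen after seeing the data. Promoters and gene names come from RefSeq tables and positions from GENCODE vM21.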

Additional observations from a re-analysis of the deposited data

Results flagged for a closer look

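The ratio of P1 MI over P1 sham of Gzma in NK-like cells had opposite signs in the genotypes. On the log2 scale it was -0.62 in KO-labelled hearts (exact counting interval -0.78 to -0.46), against 0.10 for WT replicate 1 (-0.08 to 0.27, which includes 0) and 0.20 for WT replicate 2 (0.07 to 0.32). Within subcluster 3 it was -0.64 in KO-labelled hearts (-0.81 to -0.48), against 0.28 (0.09 to 0.46) and 0.38 (0.24 to 0.51) in WT. For Gzmb in subcluster 3 it was -1.43 in KO-labelled hearts (-2.28 to -0.71), against 0.32 for WT replicate 1, on 9 UMIs and with an interval that includes 0 (-1.04 to 1.48), and 1.90 for replicate 2 (1.20 to 2.72). The share of NK-like cells with a Gzma UMI ran against these ratios. After thinning it was 51.3% in KO-labelled P1 MI and 46% in KO-labelled P1 sham. In WT P1 MI replicates 1 and 2 it was 60% and 51.3%, against 69.7% in WT P1 sham. The exact binomial intervals of MI and sham overlapped in both genotypes. For Gzmb, 1 cell held 45.4% of the 86 UMIs of all NK-like cells in KO-labelled P1 sham. The difference between genotypes was not tested, and each KO-labelled value stands on 1 MI and 1 sham library. The ratios listed here were picked because both WT replicates shared a sign and the KO-labelled ratio had the other. The KO-labelled interval also had to exclude 0, so the opposite signs and these intervals are no test.

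WT 8 week MI had no cell in the NK-like class, but 30 of its cells lay in an unnamed lymphocyte subcluster led by Spp1 and C1q genes, with a low median of 767 UMIs. There Nkg7 was at 4436 CPM, Gzma at 2313 CPM, Xcl1 at 1251 CPM, Klrk1 at 682.4 CPM, Gzmb at 606.6 CPM and Prf1 at 341.2 CPM, all above the limit that a count of 0 allows, whereas no Ifng UMI was found. NK was the class whose markers scored highest in this subcluster, with 9 NK markers detected. It stayed unnamed because its leading genes held macrophage markers. The genes that lead it are macrophage genes, whose part in these values was not tested.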

How the results depend on the processing

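No paired analysis was possible because only WT P1 MI has replicate numbers in the labels. Counts of called genes moved with the test and the cell classes. In NK-like cells the 95 genes called for age became 21 with DESeq2, 167 with the marker gate and 45 within subcluster 3. The 5 called for MI became 3 with RLE size factors, 9 with no filter, 0 with DESeq2, 15 with the gate and 2 within subcluster 3, and the 17 for genotype became 3 with DESeq2, 4 with 6 groups and 318 with the gate. In CD8 T-like cells the 62 genes for age became 2 with DESeq2 and 0 with the gate. The 1 for MI became 0 with DESeq2, 6 groups or the gate and 6 with no doublet removal, and the 14 for genotype became 0 with DESeq2, 6 groups or the gate and 9 with no doublet removal. In CD4 T-like cells (at least 5 cells) the 62 for age became 3 with DESeq2 and 0 with the gate, the 0 for MI became 1 with no filter and 4 with 6 groups, and the 111 for genotype became 42 with DESeq2, 51 with 6 groups and 0 with the gate. The cause of these moves was not tested.

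Leaving out 1 library gave 19 to 232 genes for age, 0 to 80 for MI and 1 to 79 for genotype in NK-like cells. In CD8 T-like cells it gave 2 to 308 for age, 0 to 8 for MI and 0 to 76 for genotype, and in CD4 T-like cells 0 to 338 for age, 0 to 13 for MI and 0 to 305 for genotype. Over all comparisons, members that were called stayed called in 81 alternative fits, lost the call in 68 and reversed in 1, and members that were not called changed sign in 56 of their alternative fits and were called in 23. The age difference of Gzma in NK-like cells was -0.87 within subcluster 3, that of Gzma in CD8 T-like cells was -1.82 with the gate, and that of Nkg7 in CD4 T-like cells ran from -1.93 to 2.55 as libraries were left out. The number of members whose NK-like level was highest in WT 8 week sham was 7 with no doublet removal, from 1000 UMIs per cell and after thinning, and 6 with the marker gate, where Xcl1 was higher in WT 8 week MI. Depth limits Gzmk in NK-like cells and all members but Nkg7 in T-like cells of P1, where a library held 6 to 60 such cells. The fit within CD8 T-like cells without the Sox4-led and Rag1-led subclusters gave no test.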

Other observations

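Of 3 lymphocyte subclusters without a name, which entered no comparison, 2 carried much of these genes. The first was led by cell cycle genes such as Mki67 and Top2a. Gzma in it was at 1489 CPM in WT 8 week sham, 1489 and 2948 CPM in KO-labelled P1 MI and sham, 3555 CPM in WT P1 MI replicate 2 and 518 CPM in WT P1 sham, so cycling lymphocytes carried Gzma at both ages. It held 41.4% of all Gzma UMIs of KO-labelled P1 sham, together with the other unnamed lymphocytes, against 9.43% in WT P1 sham. In WT P1 MI replicate 2, cells named macrophage-like held 24.5% of the library's 2137 Gzma UMIs, against 2.18% in WT 8 week sham and 0% in WT P1 sham.

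In NK-like cells the inhibitory receptor Klra8 was called lower in KO-labelled hearts (log2 fold change -8.39, adjusted p = 0.000917, edgeR). It had 0 UMIs in both KO-labelled P1 libraries, against 0 and 10 UMIs in WT P1 MI replicates 1 and 2 and 15 UMIs in WT P1 sham. The WT 8 week sham library had 2118. Klra8 lies in a cluster of near-identical genes, among which counting can split reads, and the strain background of the KO-labelled mice is not in the labels. In CD8 T-like cells Cd160, a receptor of NK and memory T cells, was called higher in KO-labelled hearts (2.86, adjusted p = 1.79e-05, edgeR). It had 17 and 56 UMIs (150 and 164 CPM) in KO-labelled P1 MI and sham. WT P1 MI replicates 1 and 2 had 3 and 6 UMIs (18.4 and 56.0 CPM), and WT P1 sham had 5 (11.6 CPM). No gene was called for this comparison by DESeq2, with 6 groups or with the marker gate. After MI, Cxcl10 was called higher in NK-like cells (2.59). It had 24 UMIs (164 CPM) in KO-labelled P1 MI. WT P1 MI replicates 1 and 2 had 1 and 70 UMIs (13.9 and 365 CPM). KO-labelled P1 sham had 20 UMIs (78.1 CPM) and WT P1 sham 0, so the groups overlap. DESeq2 called no gene for this comparison, and Cxcl10 was not called within subcluster 3.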
